A study of Mus musculus with 8 samples.

Results

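The 10 genes described here encode growth factors and receptors of the vascular endothelial growth factor (VEGF) and platelet-derived growth factor (PDGF) families. They were chosen by symbol from the deposited counts, and 10 of 10 symbols were present among the 25239 symbols of the table. All 10 also passed the filter on low counts, which left 12837 genes for testing. The cells are described as primary osteoblasts from calvaria, the roof of the skull, of mice. One group of 4 libraries is labelled KO(OSX-SphK2), a knockout of the sphingosine kinase gene Sphk2 named with Osx (osterix, gene Sp7), a transcription factor of the osteoblast lineage. The other group of 4 libraries comes from littermate controls labelled WT. The labels used here give no age, treatment or number of animals behind a library, so that every p-value refers to the variation among 8 libraries, some of which may be technical. A deletion driven through osterix is carried by cells that express or once expressed that driver and by their descendants, and not by other cells.

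The libraries held 14347495 to 17928713 counts in the knockout-labelled group and 14571389 to 19065421 in the controls. Sphk2 itself stood at 69.7, 72.3, 72.1 and 131.1 CPM (counts scaled by TMM-adjusted library size) in knockout-labelled 1 to 4, and at 75.8, 64.2, 82.5 and 133.8 CPM in control 1 to 4. The log2 fold change of Sphk2 was −0.05 (SE 0.30), its count does not check the labels, and every direction given here is that of the libraries labelled knockout. The libraries numbered 4 stood apart from the rest in both groups on the first principal component, which carried 73.7% of the variance. Markers of macrophages summed to 29732 to 50374 CPM in the knockout-labelled libraries and 29903 to 39594 CPM in the controls. The osteoblast markers summed to 2687 to 14676 CPM and 4573 to 16364 CPM, and Runx2, Sp7, Col1a1 and Col1a2 were detected in 8 of 8 libraries. Of the same list, Bglap, Bglap2 and Dmp1 were at 0 in knockout-labelled 4, and Phex was at 0 in control 1 and 3. Ibsp stood at 1082, 15.9, 49.2 and 0.656 CPM in knockout-labelled 1 to 4 and ran from 3.01 to 23.3 CPM in the controls. Alpl and Bglap were also highest of the 8 libraries in knockout-labelled 1, at 83.6 and 42.3 CPM, while Runx2 and Sp7 were highest in control 2. In such bulk samples, fewer cells of a type and less RNA per cell cannot be told apart.

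VEGF ligands are secreted dimers that act on receptor tyrosine kinases, mainly of blood and lymphatic endothelium. VEGF-A drives blood vessel growth through the receptor VEGFR2 (gene Kdr), whereas VEGFR1 (gene Flt1) binds VEGF-A, VEGF-B and placental growth factor tightly and signals weakly. In bone, VEGF-A from cells of the osteoblast lineage couples vessel growth to bone formation, and VEGF-A is a target of the hypoxia-inducible factors. PDGF ligands act on the receptors PDGFR-alpha and PDGFR-beta of mesenchymal cells and pericytes. PDGF-BB secreted by preosteoclasts is known to recruit skeletal progenitors and to promote vessel formation in mouse bone.

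In levels per transcript length, Vegfa led the set in 4 of 4 knockout-labelled libraries and in control 1 and 4, and Pdgfrb led in control 2 and 3. The order of the mean level over all 8 libraries, in CPM per kb of the longest annotated transcript, was Vegfa, Pdgfb, Pdgfrb, Pdgfa, Vegfb, Pdgfc, Pgf, Vegfc, Pdgfra and Flt1. Vegfa averaged 79.8 ± 102.6 CPM per kb (SD, n = 4) in the knockout-labelled libraries and 79.4 ± 88.3 CPM per kb in the controls. Without number 4 the spread was smaller, and numbers 1 to 3 held 28.5 ± 1.14 CPM per kb (SD, n = 3) in the knockout-labelled group and 35.3 ± 2.98 CPM per kb in the controls. Pdgfb averaged 21.1 ± 10.1 and Pdgfrb 17.0 ± 8.10 CPM per kb in the knockout-labelled libraries, against 34.3 ± 11.3 and 27.5 ± 14.4 CPM per kb in the controls. Neighbours in the order differed by more than the larger of their SDs, in both groups, between Pdgfc and Pgf and between Pdgfra and Flt1, and not at the other steps. Flt1 stood last in 8 of 8 libraries, at 0.14 ± 0.11 CPM per kb in the knockout-labelled group and 0.10 ± 0.053 CPM per kb in the controls. With summed exon length instead, Pdgfrb lay above Pdgfb, at 16.8 against 14.9 CPM per kb (knockout-labelled) and 27.2 against 24.3 (controls). Vegfb then lay above Pdgfa, at 11.9 against 9.32 (knockout-labelled) and 12.6 against 12.5 (controls).

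**Figure D1:**
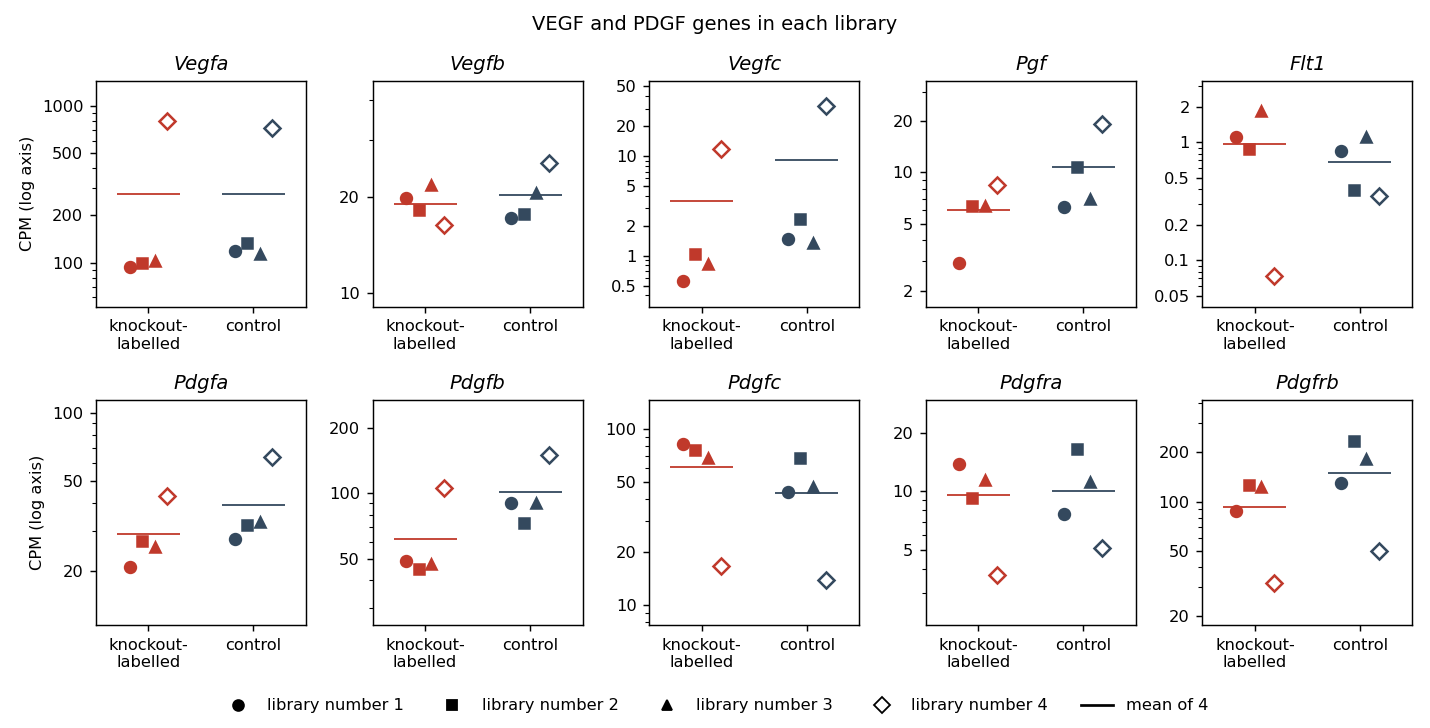
CPM of each of the 10 genes (log axis, one panel per gene) in the 4 knockout-labelled and 4 control libraries, with a marker for each library number and a line at the mean of 4. The open diamonds of number 4 lie far above the other markers for Vegfa and Vegfc, and below them for Pdgfc, Pdgfra and Pdgfrb, in both groups.

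No member passed the threshold between genotypes when all 8 libraries were compared by genotype alone. With edgeR's quasi-likelihood test and Benjamini-Hochberg adjustment, 0 of 10 were called against a background of 0% of the 12837 genes tested, and each had an adjusted p of 0.9999. Unadjusted, 0 of the 10 and 4.92% of all genes had p below 0.05. limma-voom called 0 of the 10 and 0% of all genes. DESeq2 called 0 of 8 members, where 0.89% of genes were called higher, 0.358% lower and 1.25% in all, and gave no p for Vegfa and Vegfc. The median log2 fold change was −0.26 over the 10 members, with 3 positive and 7 negative, and −0.02 over all genes tested. The groups overlapped for 10 of 10 members, where 2.32% of genes lay wholly above and 1.27% wholly below the controls.

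Libraries with the same number in the titles deviated together from their group means, so genotype was also tested with the number as a block. In that model Pdgfb, Pdgfrb and Vegfc fell, 3 of 10 members, where 1.18% of all genes fell. None of the 10 rose, against 1.31% of all genes. Leaving number 1, 2 or 3 out of both groups ended these 3 calls and every other call over all genes. With numbers 1 to 3 alone and no block, Pdgfb and Vegfa fell, 2 of 10 members against 6.29% of all genes, and 0 of 10 rose against 7.78%. With numbers 1 to 3 and the block, Vegfa, Pgf, Pdgfa, Pdgfb and Pdgfrb fell, 5 of 10 against 11.9% of all genes, and 0 rose against 12.3% (24.2% in either direction). By sign alone, 5 members were lower in 4 of 4 numbered pairs, against 13.4% of genes, and 1 member, Pdgfc, was higher in 4 of 4, against 15.4% of genes.

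**Figure D2:**
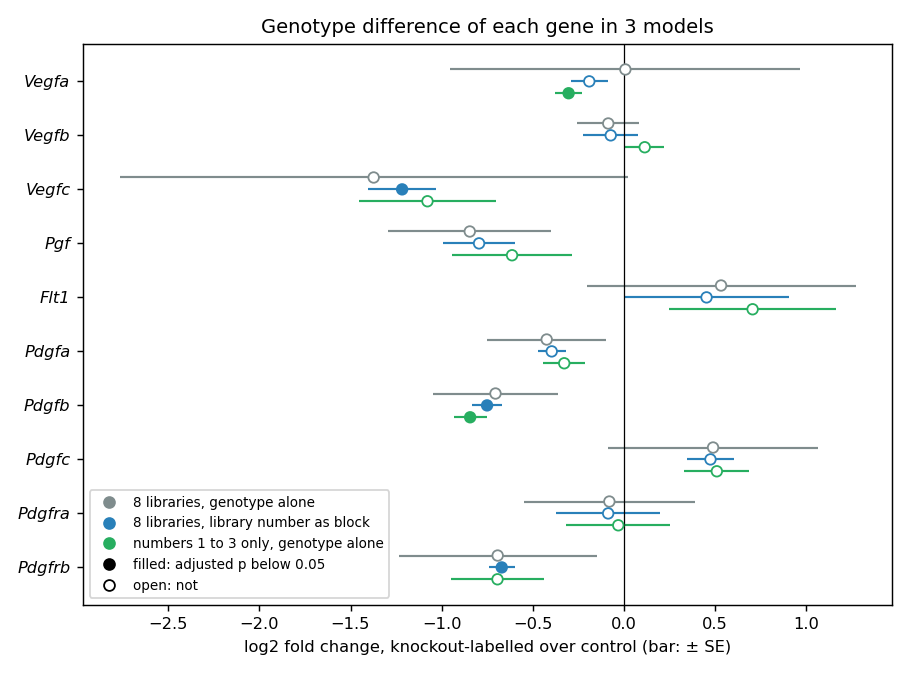
Log2 fold change of knockout-labelled over control libraries for each gene, with bars of 1 SE, in 3 models (8 libraries by genotype alone, 8 libraries with the number as a block, and numbers 1 to 3 alone). Filled points have an adjusted p below 0.05. The points of Pdgfb, Pdgfrb, Vegfc, Pgf and Pdgfa lie left of 0 in all 3 models, and the bars by genotype alone are the widest for each gene.

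Among the VEGF ligands, Vegfa differed far more by library number than by genotype. Vegfa, on chromosome 17 of GRCm38 (46016993 to 46032369, minus strand), stood at 94.1, 99.3, 101.8 and 806 CPM in knockout-labelled 1 to 4. It stood at 119, 133, 113 and 731 CPM in control 1 to 4. In numbers 1 to 3 each knockout-labelled library lay below each control, as for 16.5% of genes. In number 4 the knockout-labelled library was the higher one. Knockout-labelled over control, the ratio was 0.791 in pair 1, 0.746 in pair 2, 0.900 in pair 3 and 1.10 in pair 4. The log2 fold change was 0.01 (SE 0.96) by genotype alone, and −0.30 (SE 0.074) in numbers 1 to 3, where the adjusted p was 0.0282. Over all 8 libraries an exact permutation test (two-sided, on log2 CPM) gave p = 0.486, and 0.0286 is the smallest p such a test can give here.

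Vegfc, the growth factor of lymphatic vessels, had the most negative log2 fold change of the 10. It is encoded on chromosome 8 of GRCm38 (54077606 to 54187096, plus strand). It had 9, 19, 15 and 162 counts in knockout-labelled 1 to 4 and 28, 42, 23 and 450 counts in control 1 to 4, or 0.56, 1.03, 0.83 and 11.8 CPM against 1.48, 2.36, 1.34 and 31.5 CPM. Each knockout-labelled library was below the control of its number, with ratios of 0.377, 0.437, 0.622 and 0.375. By genotype alone the log2 fold change was −1.37 (SE 1.39), and with the block it was −1.22 (SE 0.19), with an adjusted p of 0.0412. The call rests on few counts outside number 4, and in numbers 1 to 3 alone its adjusted p was 0.0935, or 0.0527 with the block. Without control 4 the log2 fold change by genotype alone turned to 1.01.

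Pgf, which encodes placental growth factor, followed the same direction without passing in all 8 libraries. Its level was 2.92, 6.30, 6.33 and 8.45 CPM in knockout-labelled 1 to 4 and 6.30, 10.7, 6.93 and 19.2 CPM in control 1 to 4. The knockout-labelled library was lower in 4 of 4 pairs, by ratios of 0.463, 0.587, 0.914 and 0.439. Its log2 fold change was −0.85 (SE 0.45), and −0.80 (SE 0.20) with the block, where the adjusted p was 0.0898. With the block in numbers 1 to 3 it was −0.64 with an adjusted p of 0.0429. Vegfb, a ligand of VEGFR1 alone among the VEGF receptors, was the steadiest VEGF ligand by library number. It stood at 16.4 to 21.8 CPM in the knockout-labelled libraries and 17.2 to 25.5 CPM in the controls, with a log2 fold change of −0.09 and an SE of 0.17.

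The receptor gene Flt1 had the fewest counts of the 10 in number 4. Its counts were 18, 16, 33 and 1 in knockout-labelled 1 to 4, and 16, 7, 19 and 5 in control 1 to 4. By genotype alone its log2 fold change was 0.53 (SE 0.74), and 3 of 4 pairs were higher and the pair numbered 4 lower. Flt1 did not pass between genotypes with or without the block, or in numbers 1 to 3. The 11 endothelial markers together summed to 11.2 to 63.9 CPM in the knockout-labelled libraries and 10.4 to 43.1 CPM in the controls. Of these, Tek was at 0 in 8 of 8 libraries, and Emcn, Cldn5 and Robo4 were at 0 in 4 of 4 knockout-labelled libraries, against 2, 3 and 3 of 4 controls. Pecam1 stood at 3.75 to 29.2 CPM in the knockout-labelled libraries and 3.14 to 16.3 CPM in the controls. Vwf stood at 2.77 to 22.1 CPM and 1.57 to 14.8 CPM and was higher in 4 of 4 pairs. The VEGF-A receptor Kdr stood at 2.39 to 3.86 CPM in the knockout-labelled libraries and 1.75 to 7.69 CPM in the controls.

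Start regions are shown for the members whose level in number 4 was at least 2-fold (Vegfa, Vegfc) or at most 0.5-fold (Flt1, Pdgfc, Pdgfra) of the mean of numbers 1 to 3 in both groups. Pdgfrb also belongs to the second set and is named only. Flt1 is in that set on 1 count in knockout-labelled 4 and 5 in control 4. Flt1 and Pdgfra did not pass edgeR's F test of the library number (adjusted p 0.0698 and 0.0792). Each window runs from 250 bases before to 50 bases after a RefSeq start on GRCm38.p6, 5′ to 3′ on the strand of the gene. Capitals mark matches, on either strand, to the GC box (GGGCGG), the TATA motif (TATAAA), the hypoxia-response core (ACGTG) or the AP-1 motif (TGANTCA). The windows lie at chr17:46032328-46032627 (minus strand) for Vegfa, chr8:54077282-54077581 (plus) for Vegfc, chr5:147725962-147726261 (minus) for Flt1, chr3:81036166-81036465 (plus) for Pdgfc and chr5:75152001-75152300 (plus) for Pdgfra.
Vegfa: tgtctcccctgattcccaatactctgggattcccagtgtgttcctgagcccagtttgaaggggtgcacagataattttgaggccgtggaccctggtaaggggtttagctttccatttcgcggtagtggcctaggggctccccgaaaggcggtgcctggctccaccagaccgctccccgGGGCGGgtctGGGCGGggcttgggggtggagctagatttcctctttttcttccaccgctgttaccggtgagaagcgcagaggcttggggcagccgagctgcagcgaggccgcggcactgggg
Vegfc: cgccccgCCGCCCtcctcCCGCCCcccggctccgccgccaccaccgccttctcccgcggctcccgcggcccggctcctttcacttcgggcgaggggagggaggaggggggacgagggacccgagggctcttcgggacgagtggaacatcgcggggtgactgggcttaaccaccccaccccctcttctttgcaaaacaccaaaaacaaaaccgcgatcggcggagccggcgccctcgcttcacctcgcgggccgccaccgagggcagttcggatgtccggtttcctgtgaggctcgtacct
Flt1: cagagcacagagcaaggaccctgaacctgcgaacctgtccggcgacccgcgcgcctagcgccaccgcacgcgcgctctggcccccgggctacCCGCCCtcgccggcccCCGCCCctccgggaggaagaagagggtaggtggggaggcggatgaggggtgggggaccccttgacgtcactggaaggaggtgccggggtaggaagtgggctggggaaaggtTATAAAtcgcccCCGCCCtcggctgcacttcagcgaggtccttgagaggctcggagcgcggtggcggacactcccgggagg
Pdgfc: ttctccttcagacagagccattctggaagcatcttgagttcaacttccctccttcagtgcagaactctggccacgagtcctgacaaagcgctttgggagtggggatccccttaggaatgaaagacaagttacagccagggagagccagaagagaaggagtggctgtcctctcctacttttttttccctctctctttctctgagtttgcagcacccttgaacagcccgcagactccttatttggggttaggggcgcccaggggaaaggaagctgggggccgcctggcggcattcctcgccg
Pdgfra: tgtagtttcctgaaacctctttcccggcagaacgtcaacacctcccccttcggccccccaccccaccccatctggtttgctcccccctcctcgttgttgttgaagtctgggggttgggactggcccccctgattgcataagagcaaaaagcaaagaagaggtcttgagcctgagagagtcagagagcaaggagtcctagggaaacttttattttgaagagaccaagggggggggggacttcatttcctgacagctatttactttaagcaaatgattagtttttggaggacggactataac

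RefSeq windows were used for 8 of the 10 members, 11 windows in all, and none was used for Pdgfb or Pdgfrb. The windows printed for Vegfa and Vegfc each hold 2 GC boxes and no match to the other motifs, that of Flt1 holds 3 GC boxes and the TATA motif, and those of Pdgfc and Pdgfra hold no match to any of the 4. GC boxes thus occur in windows of both sets. Of the 11 windows, 8 hold a GC box, 1 the TATA motif, 1 the ACGTG core and 0 the AP-1 motif. The same motifs occur in 35.7%, 13.6%, 19.6% and 7.81% of the 32851 windows of the whole table. The ACGTG match lies in the other Vegfa window, which is not shown and belongs to a start inside the gene. The GC content was 62.0% for the Vegfa window shown and 70.3% for that of Vegfc, against 70.7% for Flt1, 55.0% for Pdgfc and 51.0% for Pdgfra.

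Pdgfb was the PDGF ligand that differed most between the groups. It encodes the B chain, which binds both PDGF receptors, and lies on chromosome 15 of GRCm38 (79995874 to 80014977, minus strand). It stood at 49.1, 45.0, 47.5 and 106 CPM in knockout-labelled 1 to 4 and at 90.8, 73.1, 90.7 and 149 CPM in control 1 to 4. Within numbers 1 to 3 the groups were separate by more than their spread, at 47.2 ± 2.06 CPM (SD, n = 3) and 84.9 ± 10.2 CPM (SD, n = 3), and in number 4 the order was the same. Over all genes, 16.5% lay wholly below the controls in numbers 1 to 3. The Pdgfb ratios were 0.540, 0.616, 0.524 and 0.712 in pairs 1 to 4. The log2 fold change was −0.70 (SE 0.35) by genotype alone (exact permutation p = 0.114) and −0.75 (SE 0.085) with the block (edgeR adjusted p = 0.0361). With numbers 1 to 3 alone edgeR gave −0.84 (SE 0.090) and an adjusted p of 0.000689. The 10 osteoclast markers had pair ratios of 1.02, 0.632, 1.07 and 0.660, and their part in the Pdgfb result was not tested.

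Pdgfa, the A chain, and Pdgfc, whose product must be cleaved to become active, leaned in opposite directions, and neither passed with all 8 libraries. Pdgfa stood at 20.8, 27.2, 25.5 and 42.9 CPM in knockout-labelled 1 to 4 and 27.6, 32.0, 32.8 and 63.6 CPM in control 1 to 4, lower in 4 of 4 pairs. Its log2 fold change was −0.42 (SE 0.33) by genotype alone (exact permutation p = 0.343). With the block it was −0.40 (SE 0.077), with an edgeR adjusted p of 0.0552, just outside the threshold. In numbers 1 to 3 the edgeR adjusted p of Pdgfa was 0.0948 without the block and 0.0126 with it. Pdgfc stood at 81.7, 75.8, 68.3 and 16.6 CPM in knockout-labelled 1 to 4 and 43.8, 68.2, 47.1 and 13.8 CPM in control 1 to 4, higher in 4 of 4 pairs. Its log2 fold change with the block was 0.47 (SE 0.13), with an adjusted p of 0.116. The groups did not overlap in numbers 1 to 3 for either gene, as for 16.5% of genes below and 18.2% above the controls. Both margins were narrow, at 27.2 against 27.6 CPM for Pdgfa and 68.3 against 68.2 CPM for Pdgfc (knockout-labelled against control). Exons of Pdgfa share 813 bases with an annotated antisense gene and those of Pdgfc 147 bases, and reads from either side cannot be told apart without strand.

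In the sum of Pdgfa, Pdgfb and Pdgfc, in CPM per kb, the shares of Pdgfb and Pdgfc differed between the groups in numbers 1 to 3. The Pdgfa share overlapped there, at 20.2%, 26.4% and 25.8% in knockout-labelled 1 to 3 and 23.7%, 26.0% and 26.5% in control 1 to 3. Pdgfb made up 33.4%, 30.6%, 33.7% and 58.6% of that sum in knockout-labelled 1 to 4, and 54.4%, 41.6%, 51.3% and 59.3% in control 1 to 4. Pdgfc made up 46.4%, 43.1%, 40.5% and 7.65%, against 21.9%, 32.4%, 22.2% and 4.59%. Pdgfc in numbers 1 to 3 held the greatest of the 3 shares in each knockout-labelled library and Pdgfb in each control, and in number 4 Pdgfb led in both. Of the sum of Vegfa, Vegfb, Vegfc and Pgf, Vegfa held 59.1% to 62.0% in knockout-labelled 1 to 3 and 62.2% to 66.9% in control 1 to 3, and 91.5% and 83.4% in number 4. Vegfc held 0.514% to 1.89% in the knockout-labelled libraries and 1.04% to 5.06% in the controls. These sums leave out the ligand genes Pdgfd and Vegfd, which are not among the 10. Pdgfd stood at 12.3, 8.86, 5.67 and 1.31 CPM in knockout-labelled 1 to 4 and 8.78, 15.9, 8.68 and 2.66 CPM in control 1 to 4, and Vegfd at 0.510 to 3.17 CPM and 0.899 to 1.799 CPM. The shares are descriptions and were not tested.

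**Figure D3:**
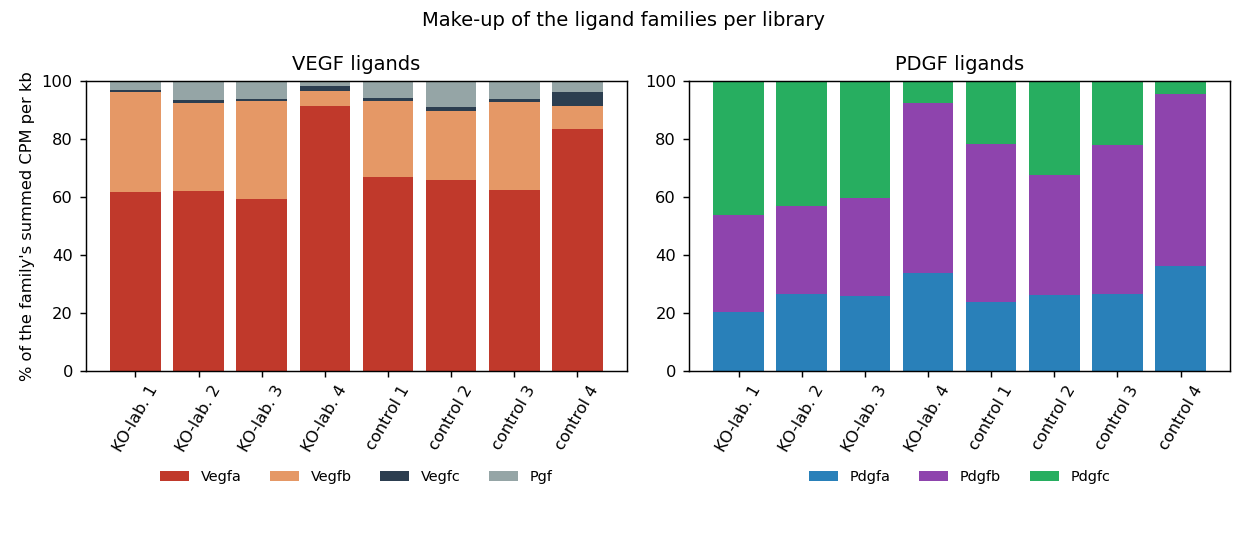
Share of each ligand in the summed CPM per kb of Vegfa, Vegfb, Vegfc and Pgf (left) and of Pdgfa, Pdgfb and Pdgfc (right), one bar per library, knockout-labelled libraries before controls. In numbers 1 to 3 the Pdgfc part is 40.5% to 46.4% in knockout-labelled libraries and 21.9% to 32.4% in controls, and in number 4 Vegfa takes 91.5% and 83.4% of the left sum.

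Of the PDGF receptors, Pdgfrb was lower in each pair and Pdgfra was not. Pdgfrb encodes PDGFR-beta, the receptor of pericytes and other mesenchymal cells, and lies on chromosome 18 of GRCm38 (61045150 to 61085061, plus strand). It stood at 87.2, 126, 123 and 31.8 CPM in knockout-labelled 1 to 4 and at 130, 233, 182 and 49.9 CPM in control 1 to 4. Numbers 1 to 3 did not overlap between the groups, narrowly at 126 against 130 CPM, where 16.5% of genes lay wholly below the controls. The ratios of 0.668, 0.542, 0.676 and 0.638 were close to each other. The log2 fold change was −0.69 (SE 0.54) by genotype alone and −0.67 (SE 0.071) with the block, where the adjusted p was 0.0328. Its adjusted p in numbers 1 to 3 was 0.149 without the block and 0.00013 with it.

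Pdgfra encodes PDGFR-alpha, a marker of mesenchymal progenitors. It stood at 13.8, 9.24, 11.4 and 3.71 CPM in knockout-labelled 1 to 4 and at 7.62, 16.4, 11.2 and 5.10 CPM in control 1 to 4 and the groups overlapped. The ratios were 1.81, 0.563, 1.02 and 0.728, and the log2 fold change was −0.08 (SE 0.47). In CPM per kb, Pdgfrb exceeded Pdgfra by 7.98, 17.2, 13.6 and 10.8 times in knockout-labelled 1 to 4 and by 21.6, 17.9, 20.5 and 12.3 times in control 1 to 4, so the ratio was lower in the knockout-labelled library of each pair. Exons of Pdgfra share 652 bases with other annotated genes.

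Summed stromal markers varied over the pairs in ways partly like the receptors. The 10 mesenchymal and fibroblast markers summed to 3462, 2822, 2528 and 1015 CPM in knockout-labelled 1 to 4 and 1550, 4370, 2472 and 1848 CPM in control 1 to 4, pair ratios of 2.23, 0.646, 1.02 and 0.549. The 12 osteoblast markers gave pair ratios of 2.06, 0.601, 1.03 and 0.588. Both series of ratios run in the order of those of Pdgfra, except that pair 4 lies below pair 2 for them and above it for Pdgfra. For Pdgfrb, the 9 mural cell markers gave ratios of 0.710, 0.584, 0.680 and 2.13, close to those of the receptor in pairs 1 to 3 and opposite in pair 4. Acta2, a contractile gene of mural cells and myofibroblasts, made up most of that sum, and 5 of the 9 markers passed the filter on low counts. The other tested markers had unlike ratios in pairs 1 to 4. These were 2.18, 1.066, 1.73 and 0.561 for Notch3 and 1.16, 0.686, 0.703 and 7.81 for Myh11. Those of Cspg4 were 0.351, 0.604, 0.989 and 1.30, and those of Mcam 0.2075, 0.460, 0.307 and 5.73. Rgs5, Abcc9, Kcnj8 and Higd1b did not, and each averaged under 1 CPM in both groups. The part of these marker levels in the receptor results was not tested.

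**Figure D4:**
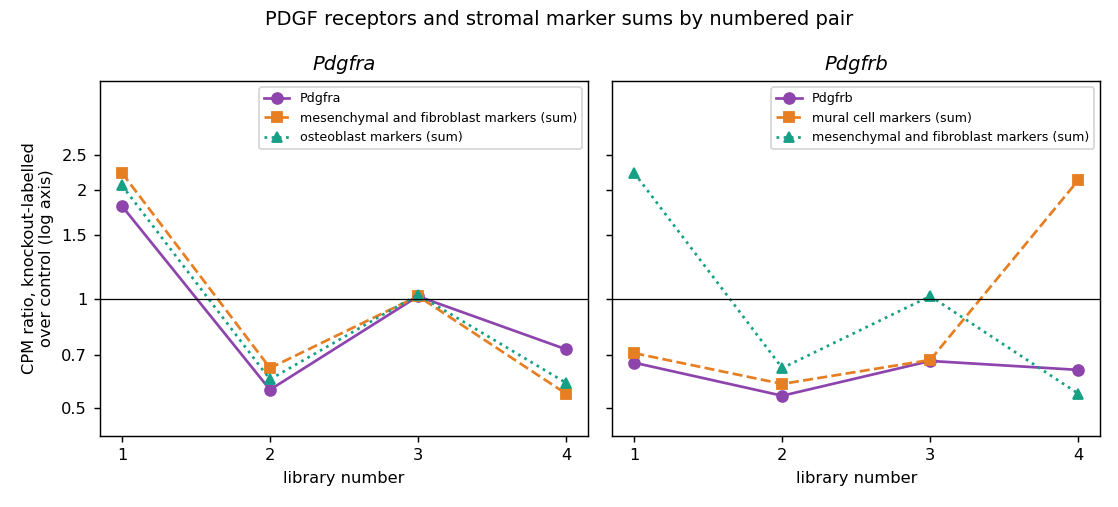
Ratio of CPM, knockout-labelled over control (log axis), in each numbered pair for Pdgfra (left) and Pdgfrb (right), beside summed stromal marker lists. The Pdgfra ratios of 1.81, 0.563, 1.02 and 0.728 lie near those of the mesenchymal and osteoblast sums, and the Pdgfrb ratios of 0.542 to 0.676 lie near those of the mural sum in pairs 1 to 3 alone.

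Across library numbers, 7 of the 10 members differed with an adjusted p below 0.05 (edgeR, F test of the number beside genotype), where 53.1% of all genes did. Vegfb, Flt1 and Pdgfra did not pass. Relative to the mean of numbers 1 to 3, number 4 held 8.19 times the Vegfa in the knockout-labelled group and 6.004 times in the controls. For Vegfc the ratios were 14.6 and 18.2, for Pdgfb 2.25 and 1.76, for Pdgfa 1.75 and 2.07 and for Pgf 1.63 and 2.41. Pdgfc stood at 0.221 and 0.261 of numbers 1 to 3, Pdgfrb at 0.284 and 0.274 and Pdgfra at 0.324 and 0.435. Thus 2 members were at least 2-fold higher in number 4 in both groups, against 7.43% of genes, and 4 were at most 0.5-fold, against 13.4% of genes. When number 4 was left out, 1 of 10 members still differed by number, Pdgfrb, where 2.4% of all genes did.

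**Figure D5:**
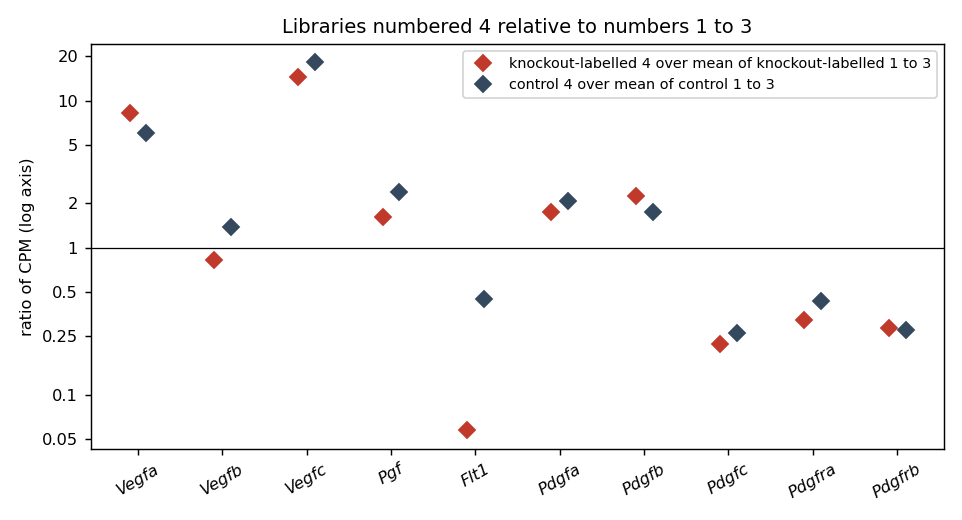
Ratio of the CPM in the library numbered 4 to the mean CPM of numbers 1 to 3 (log axis) for each gene, within the knockout-labelled group and within the controls. The ratios run from 14.6 and 18.2 for Vegfc down to 0.221 and 0.261 for Pdgfc, with 1 low Flt1 value that rests on 1 count.

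Other marker lists also differed in number 4. The 10 osteoclast markers summed to 6748 CPM in knockout-labelled 4 and 10222 CPM in control 4, against 175.6 to 188.8 CPM in knockout-labelled 1 to 3 and 171.8 to 277.9 CPM in control 1 to 3. The 18 genes of oxygen sensing and hypoxia targets summed to 4930 and 5326 CPM, against 1246 to 1346 CPM and 1285 to 1297 CPM. Ldha, at 1502 and 1762 CPM in number 4, and Pgk1, at 1067 and 1313 CPM, carried much of these sums. Of the 17 tested, 14 differed by number, where 53.1% of all genes did. Among these 14, Epas1 was lower in number 4, at 0.1165 (knockout-labelled) and 0.1665 (control) of numbers 1 to 3, and the others were higher. The mesenchymal markers stood at 0.346 of numbers 1 to 3 in the knockout-labelled group and 0.661 in the controls. The 4 lymphatic endothelial markers summed to 16.4 to 102.8 CPM in the knockout-labelled libraries and 13.7 to 97.0 CPM in the controls. Pdpn carried most of that sum, with 102.4 CPM in knockout-labelled 4 and 96.6 CPM in control 4, while Prox1 and Lyve1 were under 1 CPM in 8 of 8 libraries and Flt4 was at 0.22 and 0.21 CPM in number 4. The 7 neutrophil markers summed to 0.778 to 3.64 CPM and 1.92 to 2.80 CPM, and the 6 platelet markers to 4.83 to 21.1 CPM and 7.36 to 14.5 CPM. The most abundant markers were Lyz2 and Csf1r (macrophage), Mmp9 and Acp5 (osteoclast), Col1a1 and Col1a2 (osteoblast), Col5a1 and Col3a1 (mesenchymal), Acta2 and Mcam (mural), Pecam1 and Vwf (endothelial), Pdpn and Flt4 (lymphatic), S100a8 and Camp (neutrophil), Ppbp and Gp1ba (platelet) and Mki67 and Top2a (cell division). The 9 cell division markers had pair ratios of 3.32, 2.29, 2.79 and 1.33, and 3 of the 9 rose with the block, where 1.31% of all genes did, and 8 of 9 in numbers 1 to 3, where 7.78% did. The part of these levels in the results for the 10 genes was not tested.

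Of the other genes of the pathway, few passed between genotypes with all 8 libraries. By genotype alone, 0 of 7 other ligands, receptors and co-receptors, 0 of 8 genes of ligand processing, 0 of 25 of receptor signalling and 0 of 17 of oxygen sensing passed. Their median log2 fold changes were −0.15, −0.06, −0.05 and −0.08, near the −0.02 of all genes. With the block, 1 of 7, 0 of 8, 3 of 25 and 0 of 17 passed, where 2.49% of all genes did. In numbers 1 to 3 alone 1 of 7, 0 of 8, 5 of 25 and 3 of 17 passed, where 14.1% did. The co-receptor gene Nrp1, picked once its value was known, rose with the block (0.47, SE 0.055, edgeR adjusted p = 0.0361), at 418, 412, 412 and 59.0 CPM in knockout-labelled 1 to 4 and 313, 295, 294 and 41.4 CPM in control 1 to 4. The ligand gene Vegfd (0.72, SE 0.51), the co-receptor gene Nrp2 (−0.15, SE 0.15) and the lymphatic receptor gene Flt4 (−0.56, SE 0.75) had the smallest p in their list by genotype alone and did not pass.

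Within receptor signalling, Ptprb, which encodes the endothelial phosphatase VE-PTP, fell with the block (−2.35, SE 0.39, edgeR adjusted p = 0.0432). It stood at 0.68, 1.03, 0.83 and 0.073 CPM in knockout-labelled 1 to 4 and 5.24, 2.92, 6.17 and 0.070 CPM in control 1 to 4, so the difference lies in numbers 1 to 3. Ptprj, a receptor phosphatase, rose (0.37, SE 0.057, edgeR adjusted p = 0.0412) and the kinase gene Src fell (−0.51, SE 0.059, adjusted p = 0.0361) with the block, both picked once their values were known. Spry1, an inhibitor of receptor tyrosine kinase signalling (−0.66, SE 0.32), and Hras (−0.19, SE 0.12) did not pass by genotype alone. Of ligand processing, Ctsd (0.35, SE 0.18), Ccbe1, a cofactor for the cleavage of VEGF-C (−0.30, SE 0.30), and the convertase Pcsk5 (−0.83, SE 0.89) did not pass. Of oxygen sensing, the vasodilator peptide gene Adm (−0.89, SE 0.33), Ndrg1 (1.49, SE 1.199) and the oxygen sensor Egln1 (−0.41, SE 0.35) did not pass.

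The genes whose centred log2 CPM profiles over the 8 libraries lay nearest to each member were also recorded. Nearest to Vegfa were Socs3 and Ifitm2, with root mean square differences of 0.113 and 0.166, against a median of 1.24 over all genes tested. Nearest to Vegfc was Slc45a3 at 0.369, against a median of 1.82. Nearest to Pdgfra were the collagen gene Col1a2 and Mdk at 0.125 and 0.143, against a median of 0.737. Nearest to Pdgfrb were Lhfp and Ctxn1 at 0.124 and 0.126, against 0.935, and nearest to Pdgfb were the ribosomal protein gene Fau and Fkbp1b at 0.134 and 0.149, against 0.654. For the other 5 members the nearest were Gnl3 and Fam120aos (Vegfb, 0.0777 and 0.101), Apbb1 and Ntn3 (Pgf, 0.237 and 0.252), Chst3 and Ang (Flt1, 0.306 and 0.325), Oasl2 and B4galnt1 (Pdgfa, 0.0976 and 0.113) and Zfp947 and Sytl2 (Pdgfc, 0.149 and 0.152). All these profiles share the same 8 libraries, including the 2 numbered 4 that stood apart. Each gene was picked for its small difference, so a value below the median was fixed by that choice.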

How the data were processed

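Gene-level read counts of 8 mouse RNA-seq libraries were analysed, as deposited by the authors in 1 table. The authors aligned to GRCm38 (mm10), and the tools named are STAR 2.7.11b with featureCounts 2, per the submitters' processing notes. The annotation and the use of strand are not given in the sources used here. edgeR 4.0.16 (R 4.3.3, limma 3.58.1) kept 12837 of 25239 genes with filterByExpr and scaled them by TMM. The main test was a quasi-likelihood test of genotype with Benjamini-Hochberg adjustment and a threshold of 0.05. The log2 CPM values, which that test does not use, took a prior count of 2. DESeq2 1.42.0, limma-voom, no filter, left-out libraries and a block for the library number were alternatives. The scripts were tested on simulated data.

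Same-numbered libraries deviated together (correlations 0.46, 0.724, 0.665 and 0.829 for numbers 1 to 4, and 0.161, 0.29 and 0.376 with numbers 1 to 3 alone). Each exceeded 0.1, so the number was treated as a pairing, which rests on these correlations and on no label. Correlations between libraries of unlike number were not set beside them, so these values alone do not show that the libraries were paired.

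The 10 genes and all lists were chosen with earlier results of these data known. Beyond the 10 genes, the 3 with the smallest p by genotype in each pathway list were named, as were the 2 genes with the nearest profiles and the 2 most abundant genes of each marker list. One gene that this rule names is not reported here. Positions and lengths came from GENCODE M21, and start regions from RefSeq on GRCm38.p6. Counting error limits genes with few counts, such as Flt1 and Vegfc.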

Additional observations from a re-analysis of the deposited data

Results flagged for a closer look

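Among the 20 sets of 4 libraries (10 genes in each group), 6 held a library far from the other 3, and in 6 of 6 it was number 4. The rule would flag about 1 in 20 independent sets of normally distributed values, but these 20 sets share the same 8 libraries. How many of all genes hold such a library was not counted, and 53.1% of all genes differed by library number (edgeR F test). Vegfa stood at 806.2 CPM in knockout-labelled 4 and 730.8 CPM in control 4. Vegfc stood at 11.8 CPM in knockout-labelled 4 and 31.47 CPM in control 4. Pdgfb stood at 106.3 CPM in knockout-labelled 4, and Pdgfa at 63.63 CPM in control 4. The part of cell make-up or handling in these values was not tested.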

How the results depend on the processing

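By genotype alone, 0 genes rose and 0 fell. DESeq2 called 112 higher and 45 lower (members 0 and 0). Leaving out 1 library gave 0 to 25 higher and 0 to 13 lower, and calls appeared when control 4 (25 and 13) or knockout-labelled 4 (17 and 7) was the one left out. Without number 4 in both groups 1005 genes were higher and 812 lower, among them 2 members lower. The replicate block gave 168 higher and 151 lower genes, with 3 members lower, and the block without number 4 gave 1593 and 1539, with 5 members lower. The block called no gene when number 1, 2 or 3 was left out.

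The log2 fold change of Vegfa turned negative with the replicate block (−0.19), in limma-voom (−0.19), without number 4 (−0.30), and with the block without number 1 (−0.14), 2 (−0.11), 3 (−0.21) or 4 (−0.30). Leaving out 1 library moved it between −1.48 and 1.17. For Vegfb it turned positive without number 4 (0.11, also 0.11 with the block), and single leave-outs gave −0.16 to 0.043. Vegfc ran from −3.48 to 1.01 over single leave-outs. Pdgfra ran from −0.31 to 0.27, and gave 0.18 with the block without number 2 and 0.0029 with the block without number 4. Pgf, Pdgfa, Pdgfb and Pdgfrb were below 0, and Pdgfc and Flt1 above 0, in 19 of 19 alternatives. By library number, 310 genes and 1 member were called without number 4. The cause of these shifts was not tested.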
